A study of Mus musculus with 8 samples.

Results

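HCN channels, Kv7 channels and the sodium-activated potassium channel Slack were followed as transcripts in the auditory nerve of mice at postnatal day 21. The genes were chosen by name, and 6 of the 15035 genes in the table belong to the group: Hcn2, Hcn3, Hcn4, Kcnq3, Kcnq5 and Kcnt1. Kcnt2, a relative of Kcnt1 on the same list, was not analysed here. The study sequenced bulk poly(A) RNA from isolated auditory nerves, with both cochleas of a mouse pooled, so that 1 library stands for 1 mouse. 4 libraries are labelled wild type (libraries 1 to 4) and 4 are labelled heterozygous for Mef2c, a MADS-box transcription factor (libraries 5 to 8). The design asks which transcripts differ where 1 copy of Mef2c is lost. Strain, sex and litter are not given in the sources used here, nor is how the Mef2c allele was made.

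HCN channels open on hyperpolarization, pass sodium and potassium, and carry the current Ih. Cyclic AMP binds to them and makes them open more readily, and Ih helps set the resting potential and input resistance of spiral ganglion neurons, the cell bodies of the auditory nerve. Kv7 channels give the slow, non-inactivating M-current, which needs the membrane lipid PIP2 and is reduced by receptors that activate phospholipase C. Slack, the product of Kcnt1, is a potassium channel opened by intracellular sodium, and with Kv7 it limits repetitive firing.

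Hcn2 lies on chr10:79716634-79736108 (plus strand, GRCm38, GENCODE M21), and its longest annotated transcript has 8 exons and 3195 bases. Hcn3 lies on chr3:89146074-89160196 (minus strand, 4002 bases) and Hcn4 on chr9:58823412-58863175 (plus strand, 6118 bases). Kcnq3 lies on chr15:65986387-66286642 (minus strand, 11824 bases in 15 exons), Kcnq5 on chr1:21398403-21961942 (minus strand, 6975 bases) and Kcnt1 on chr2:25863734-25918273 (plus strand, 6639 bases in 30 exons). The exons of Hcn3 share 711 bases with Pklr, a pyruvate kinase gene on the opposite strand, and 15.8% of its 50-base windows also occur in Pklr transcripts. Kcnq5 shares 237 exonic bases with the long noncoding RNA Gm26580, also on the opposite strand. The libraries were made strand-specific, but whether the counting used the strand is not given in the sources used here, so reads in these stretches are uncertain in origin. The other members shared no more than 0.0887% of such windows with other genes.

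Promoter sequences were at hand for 3 of the 6 genes, and 1 window for each is shown because they include the most abundant and steadiest transcript of the group, Hcn2, and the most variable, Kcnq5. Each is the 250 bases before a RefSeq transcription start on GRCm38.p6, read 5′ to 3′ on the gene's strand, with GC boxes (GGGCGG or its complement CCGCCC) in capitals. The windows are chr10:79716384-79716633 (plus) for Hcn2, chr9:58822699-58822948 (plus) for Hcn4 and chr1:21961943-21962192 (minus) for Kcnq5.
Hcn2: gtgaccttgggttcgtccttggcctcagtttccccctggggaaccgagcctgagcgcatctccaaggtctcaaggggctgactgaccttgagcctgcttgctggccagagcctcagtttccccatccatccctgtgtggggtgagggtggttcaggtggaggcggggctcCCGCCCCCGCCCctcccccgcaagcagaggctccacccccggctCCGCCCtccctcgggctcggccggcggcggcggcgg
Hcn4: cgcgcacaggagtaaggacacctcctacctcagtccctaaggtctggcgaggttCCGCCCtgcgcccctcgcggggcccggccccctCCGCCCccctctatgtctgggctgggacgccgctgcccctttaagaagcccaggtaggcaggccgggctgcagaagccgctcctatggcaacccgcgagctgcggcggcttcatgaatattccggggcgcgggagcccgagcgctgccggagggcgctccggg
Kcnq5: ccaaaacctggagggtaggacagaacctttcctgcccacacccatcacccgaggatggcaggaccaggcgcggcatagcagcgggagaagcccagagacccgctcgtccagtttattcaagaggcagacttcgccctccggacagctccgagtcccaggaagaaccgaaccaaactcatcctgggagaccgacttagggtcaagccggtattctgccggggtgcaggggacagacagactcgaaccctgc

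The Hcn2 window held 3 GC boxes, the Hcn4 window 2 and the Kcnq5 window 0, and 32.7% of 32851 promoter windows of the same length held at least 1. GC content was 70.4% in Hcn2, 71.2% in Hcn4 and 60.8% in the Kcnq5 window shown, against a median of 52.4% over all windows. A second Kcnq5 window, chr1:21962651-21962900, had 44.4%, below that median. The MEF2 consensus, searched on both strands, was found in none of these windows or in the second window of Kcnq5, and 2.92% of all windows held it. A match or its lack describes these letters only.

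The depth of the libraries, estimated from the smallest step between values, was 13363457 to 21507372 reads. Values are normalized counts, that is, read counts divided by a size factor for each library. Mef2c itself had 438.6, 498.4, 508.7 and 402.2 normalized counts in wild-type libraries 1 to 4, and 583.3, 704.9, 735.1 and 649.8 in libraries 5 to 8. The transcript of the targeted gene was thus higher, not lower, in every library labelled heterozygote. The authors' deposited table gave a ratio of 1.44 with an FDR of 0.0162, and the limma-trend adjusted p was 0.186. Counts per gene do not separate the alleles, and how the allele was made is not given, so they do not test the label. Directions are therefore given for the labels and not for a measured loss of Mef2c. All 16 neuronal markers examined were measured, from Tubb3 and Nefl to Snap25 and Gata3. Their summed level was 240621 to 311700 normalized counts in wild type and 252935 to 305562 in libraries 5 to 8. Of 12 lists of cell type markers, 1 held genes past the threshold: 4 of 12 oligodendrocyte markers fell, and their summed level was 122413 to 157868 in wild type and 65211 to 85550 in libraries 5 to 8. In bulk tissue, fewer cells of a type and less RNA per cell cannot be told apart. Wild-type library 1 and library 5 were low in Xist (12 and 7.6 normalized counts, against at least 5175 in the others).

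Levels of different genes were compared per kilobase of the longest transcript. Hcn2 was far above the rest, at 2392 ± 159 normalized counts per kilobase in wild type (SD, n = 4), and ranked first in all 8 libraries. It made up 79.9% to 87.4% of the summed per-kilobase level of the 6 transcripts by the longest transcript, and 64.8% to 77.8% by the median length of each gene's transcripts. Hcn4, the subunit best known from pacemaker cells of the heart, followed at 148.5 ± 40.0 normalized counts per kilobase. Kcnt1 was at 145.5 ± 24.4, and these neighbours exchanged places between libraries, so their order did not exceed their spread. Kcnq3, which assembles with other Kv7 subunits into the M-channel, was at 60.5 ± 15.2 and held rank 4 in every library. Hcn3, a channel with little response to cyclic AMP, was at 24.8 ± 14.7 and Kcnq5 at 15.3 ± 11.97, and this last pair also exchanged places. With the median length of each gene's transcripts in place of the longest, Hcn2 stayed first and Kcnq5 last over the mean of the 8 libraries, while Kcnt1, Kcnq3, Hcn4 and Hcn3 took places 2 to 5 in that order. Their wild-type means were then 267.6, 240.2, 148.5 and 129.2 normalized counts per kilobase, and that of Kcnq5 was 40.2.

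**Figure D1:**
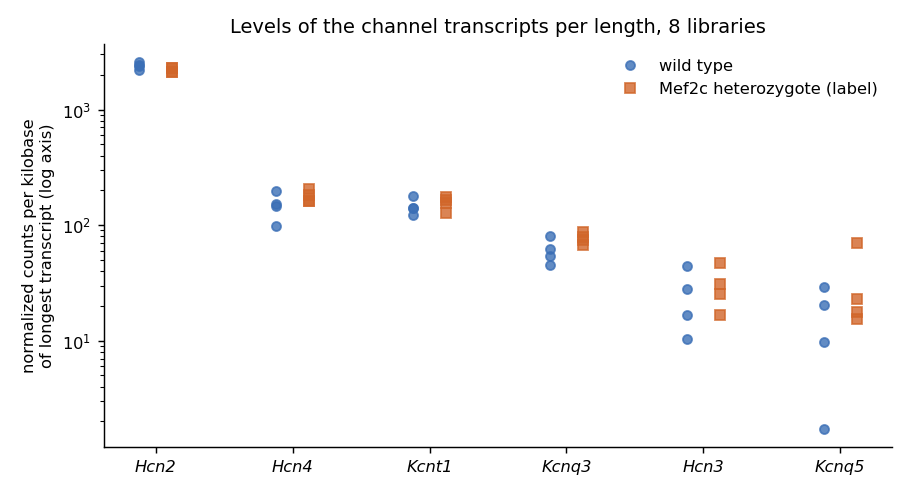
Normalized counts per kilobase of the longest transcript (log axis) for each channel gene, with 1 point per library, circles for wild type and squares for libraries labelled heterozygote. Hcn2 is at 2126 or more in all 8 libraries, and the lowest point is Kcnq5 in wild-type library 4 at 1.73.

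No channel transcript differed between genotypes past the threshold. 6 of 6 members passed the filter on low values, and 0 of 6 had a limma-trend Benjamini-Hochberg adjusted p under 0.05, where 0.0807% of 14870 genes tested did. At an unadjusted p under 0.05 there was 1 of 6, Kcnq3, against 14.1% of all genes tested. The genotypes overlapped in all 6 members, while they did not overlap in 7.26% of all genes. In the authors' deposited table, 0 of 6 had an FDR under 0.05, against 1.61% of its genes. The log2 fold change was above 0 for 5 of 6 members and for 52.3% of all genes tested. Its median was 0.33 over the members and 0.02 over all genes.

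**Figure D2:**
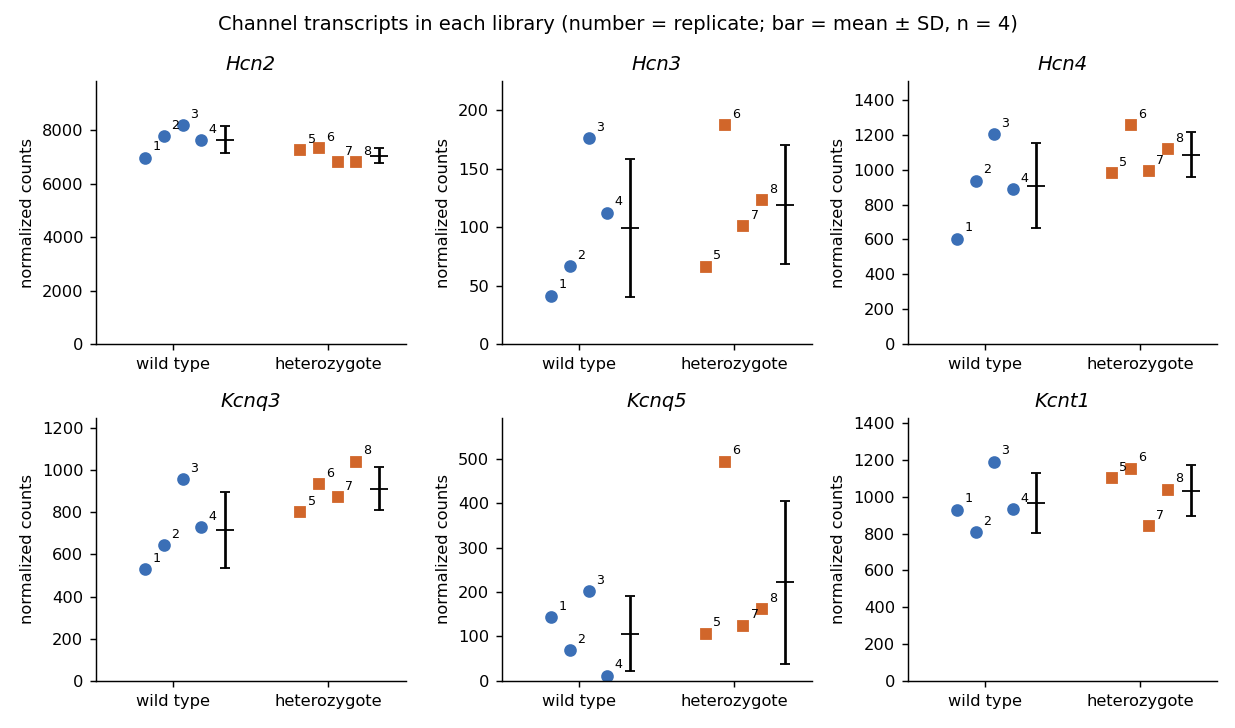
Normalized counts of each channel transcript by library (linear axes from 0), with replicate numbers beside the points and the mean ± SD (n = 4) as a bar. The genotypes overlap in every panel, and library 6 stands at 493.2 for Kcnq5.

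Among the HCN channels, Hcn2 was the steadiest. It had 6974, 7766, 8197 and 7632 normalized counts in wild-type libraries 1 to 4 and 7257, 7321, 6816 and 6794 in libraries 5 to 8. Wild-type library 1 lay among the libraries labelled heterozygote, and the other 3 wild-type libraries lay above all of them. The mean was 7642 ± 507 in libraries 1 to 4 and 7047 ± 281 in libraries 5 to 8 (SD, n = 4 each). Its log2 fold change came to -0.12 (SE 0.09), and the 95% interval ran from -0.30 to 0.07, or 0.810-fold to 1.05-fold. The limma-trend adjusted p was 0.543. Over the 8 libraries the SD of Hcn2 was 0.09 on the log2 scale, and 95.9% of the genes tested varied more. Hcn2 is also known from oligodendrocytes, whose 12 markers had a median log2 fold change of -1.01; their part in the values of Hcn2 was not tested. Without wild-type library 1, or without both libraries low in Xist, the genotypes no longer overlapped for Hcn2 (log2 fold changes -0.16 and -0.17, limma-trend adjusted p 0.454 and 0.414). In those fits 10.4% and 18.5% of all genes did not overlap.

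Hcn4 had 604.8, 937.6, 1203 and 889.0 normalized counts in wild-type libraries 1 to 4, and 981.9, 1256, 989.5 and 1117 in libraries 5 to 8. Wild-type library 1 was the lowest of all, and wild-type library 3 was above all libraries labelled heterozygote except library 6. The mean was 908.5 ± 245 in libraries 1 to 4 and 1086 ± 129 in libraries 5 to 8 (SD, n = 4 each). Its log2 fold change came to 0.29 (SE 0.18) at a limma-trend adjusted p of 0.464, with an interval from 0.934-fold to 1.60-fold. Leaving out wild-type library 1 gave 0.11, and leaving out wild-type library 3 gave 0.44, when the genotypes did not overlap (limma-trend adjusted p 0.752 and 0.135). Without wild-type library 3, 20.9% of all genes did not overlap. With the trend of each library on transcript length removed it was 0.14, and without both libraries low in Xist 0.16.

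Hcn3 was the scarcest HCN transcript examined, with 41.5, 67.0, 176.0 and 112.3 normalized counts in wild-type libraries 1 to 4 and 66.3, 187.3, 100.8 and 122.8 in libraries 5 to 8. These values rest on 32 to 215 estimated reads. The genotypes overlapped over most of their range, with means of 99.2 ± 59.0 and 119.3 ± 50.9 (SD, n = 4 each). Between labels the log2 difference was 0.37 (SE 0.43), at a limma-trend adjusted p of 0.710. Its interval, 0.667-fold to 2.49-fold, holds a doubling. The value ranged from 0.02 without wild-type library 1 to 0.71 without wild-type library 3, and it was 0.12 without library 6 and 0.61 without library 5.

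Of the Kv7 genes, Kcnq3 had 532.1, 645.0, 957.0 and 728.3 normalized counts in wild-type libraries 1 to 4 and 800.5, 932.3, 871.7 and 1041 in libraries 5 to 8. Wild-type library 3 lay above 3 of the 4 libraries labelled heterozygote, and the other wild-type libraries lay below all 4. The mean was 715.6 ± 180 in libraries 1 to 4 and 911.3 ± 102 in libraries 5 to 8 (SD, n = 4 each). Its log2 fold change came to 0.37 (SE 0.16), and the limma-trend p was 0.0424 before and 0.341 after adjustment. For Kcnq3 the authors' deposited table gave a ratio of 1.27, with a p of 0.0527 and an FDR of 0.333. Without wild-type library 3 the genotypes did not overlap, and the log2 fold change was 0.53 with a limma-trend adjusted p of 0.0702, the lowest of any member in any alternative. In that fit 1.49% of all genes passed the adjusted threshold, against 0.0807% with all libraries. Kcnq3 has the longest transcript of the group. Removing the trend of each library on transcript length took its log2 fold change to 0.09 (limma-trend adjusted p 0.799), and it was 0.24 without wild-type library 1.

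Kcnq5 varied most. It had 142.8, 68.6, 202.6 and 12.1 normalized counts in wild-type libraries 1 to 4 and 106.4, 493.2, 124.4 and 161.3 in libraries 5 to 8, a 40.8-fold range. Wild-type library 4 was far below the rest and library 6 far above, while the other 3 libraries labelled heterozygote lay within the wild-type range. The 12.1 normalized counts of wild-type library 4 stand for 10 estimated reads, with an exact 95% Poisson interval of 5.79 to 22.2 normalized counts that covers counting error only and stays under the next lowest library. The SD over the 8 libraries was 1.41 on the log2 scale, and 0.699% of the genes tested varied more. The mean was 106.5 ± 83.5 in libraries 1 to 4 and 221.3 ± 183 in libraries 5 to 8 (SD, n = 4 each). Between labels the log2 difference for Kcnq5 was 1.33 (SE 0.74), which had a limma-trend adjusted p of 0.422 and an interval from 0.820-fold to 7.76-fold. Leaving out wild-type library 4 gave 0.52, leaving out library 6 gave 0.85, and leaving out both libraries low in Xist gave 1.92 (limma-trend adjusted p 0.710, 0.652 and 0.356).

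Kcnt1, the Slack channel, had 930.5, 806.7, 1192 and 934.9 normalized counts in wild-type libraries 1 to 4 and 1101, 1154, 840.6 and 1040 in libraries 5 to 8. The highest library was wild type, and the genotypes overlapped throughout, with means of 965.9 ± 162 and 1034 ± 137 (SD, n = 4 each). Its log2 fold change came to 0.10 (SE 0.14), and the limma-trend adjusted p was 0.748. Its interval, 0.870-fold to 1.32-fold, was the second narrowest of the group after that of Hcn2. Its sign turned with the trend on transcript length removed, where it was -0.065, and it ran from 0.02 without wild-type library 2 to 0.21 without wild-type library 3.

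**Figure D3:**
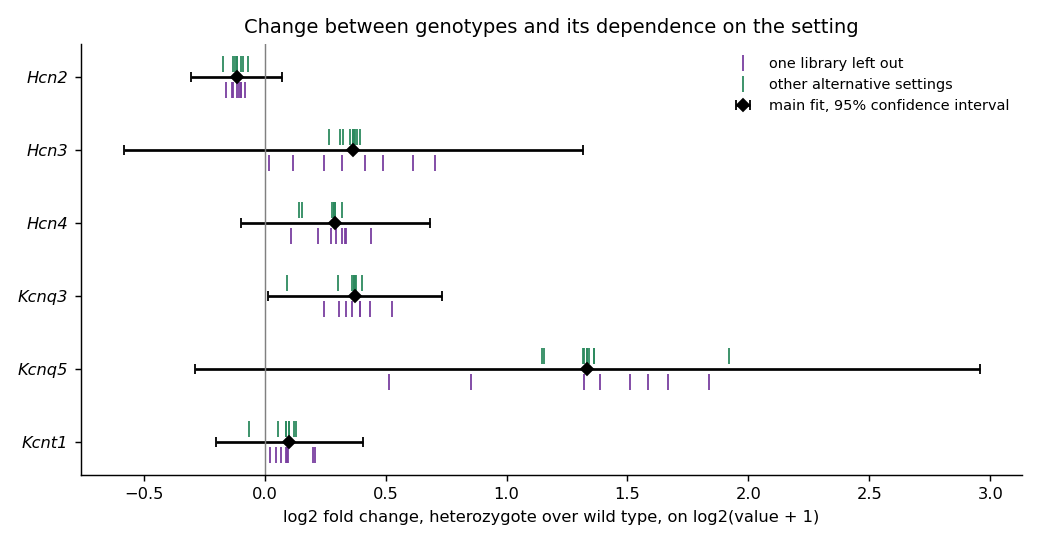
Log2 fold change of each channel transcript in libraries labelled heterozygote over wild type, on the log2(value + 1) scale, as a diamond with its 95% confidence interval, with ticks for each alternative setting. The interval of Kcnq5 is the widest, and its lowest tick, at 0.52, is the fit without wild-type library 4.

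Leaving out single libraries moved the count at an unadjusted p under 0.05. Dropping wild-type library 3 gave 3 members (Hcn4, Kcnq3 and Kcnq5), and dropping any 1 of libraries 2, 4, 6, 7 or 8 gave 0. The share of all genes moved too: it was 14.1% with all libraries and 23.0% when wild-type library 3 was dropped, 12.9% and 9.76% on dropping libraries 2 and 4, and 11.2%, 10.8% and 7.95% on dropping libraries 6, 7 and 8. The fit with the most members was thus also the one with the highest share of all genes. Without wild-type library 1, or without both libraries low in Xist, the 1 member was Kcnq5 in place of Kcnq3. The count at an adjusted p under 0.05 was 0 in each of these fits. Relative to the median of the neuronal markers in each library, a scaling added after seeing the data, Kcnq3 had a log2 fold change of 0.40 and Hcn2 of -0.09 (limma-trend adjusted p 0.385 and 0.714).

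Relatives were also set against each other within each library, which removes the library's size factor. The log2 ratio of Hcn2 to Hcn4 was 3.11 ± 0.31 in libraries 1 to 4 and 2.70 ± 0.16 in libraries 5 to 8 (SD, n = 4 each), a difference of -0.41. Its range was 2.77 to 3.53 in wild type and 2.54 to 2.88 in libraries 5 to 8, and libraries 5 and 7 reached into the wild-type range. The two-sided exact permutation p was 0.0857, and 0.343 after adjustment over the 4 ratios tested. The smallest p that 4 libraries against 4 can give is 0.0286, so after adjustment over 4 ratios a ratio could not pass on its own. For Hcn2 to Hcn3 the difference was -0.48, for Hcn3 to Hcn4 0.07 and for Kcnq3 to Kcnq5 -0.96, with exact permutation p of 0.343, 0.886 and 0.486. The ratio of Kcnq3 to Kcnq5 ran from 1.89 to 5.80 in wild type and from 0.92 to 2.90 in libraries 5 to 8. Without wild-type library 4 its difference was -0.12, and without both libraries low in Xist it was -1.62. The difference for Hcn2 to Hcn3 ran from -0.18 on dropping wild-type library 1 to -0.79 on dropping wild-type library 3, and for Hcn2 to Hcn4 from -0.27 to -0.52 in the same fits.

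The members were then followed across libraries without regard to genotype. Wild-type library 3 was the highest of the wild-type libraries in 6 of 6 members, against 27.8% of all genes tested. Wild-type library 1 was the lowest of all 8 in 3 of 6 members (Hcn3, Hcn4 and Kcnq3), against 27.6% of all genes. Library 6 was the highest of all 8 in Hcn3, Hcn4 and Kcnq5, against 10.8% of all genes. Part of the neuronal markers shared the first of these patterns: wild-type library 3 was the highest wild-type library in 11 of 16. They did not share the last, as library 6 was the highest of all 8 in 1 of 16. Wild-type library 1 was the lowest of all 8 in 7 of 16, but Uchl1, Prph and Pvalb were highest there. The median log2 deviation of the 16 markers was 0.19 in wild-type library 3 and -0.11 in wild-type library 1. It was also -0.10 in libraries 7 and 8, while in library 8 the members ran from -0.11 for Hcn2 to 0.51 for Kcnq5. The part of neuronal markers in the members' pattern was not tested. The likeness of 2 genes was measured as the root mean square difference of their log2 values over the 8 libraries, each taken as the deviation from the gene's own mean. The closest pair of members was Hcn4 and Kcnq3, which differed by 0.13, and each pair that held Kcnq5 differed by at least 1.32.

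Among 13355 other genes with a mean of at least 50 normalized counts, the patterns nearest to Hcn2 were those of Rtn4, Vdac1 and Ensa, with differences of 0.03 to 0.04 on the log2 scale. Rtn4 encodes the reticulon Nogo and Vdac1 a mitochondrial anion channel. Nearest to Hcn4 were Rars2, Lonrf2 and Apc (0.05 to 0.08), and nearest to Kcnq3 were Tiam1, Tanc2 and Iqsec1 (all 0.07). Smad1, Impdh1 and Tmem25 were nearest to Kcnt1 (0.06 to 0.07), and Ppwd1, Nrip1 and Pabpc1l2b to Hcn3 (0.32 to 0.35). Chosen as the nearest of many genes over 8 libraries, these describe likeness only.

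The patterns nearest to that of Kcnq5 were those of Scube1, Ndst4 and Kcnc2. They differed from it by 0.42, 0.47 and 0.49, against the SD of 1.41 of Kcnq5 itself. Kcnc2, for a Kv3 potassium channel, had 622.9, 105.7, 662.7 and 60.4 normalized counts in wild-type libraries 1 to 4 and 265.0, 1257, 298.7 and 380.7 in libraries 5 to 8. Scube1, for a secreted and cell-surface protein, had 394.5, 168.0, 399.7 and 56.8, then 270.5, 792.0, 233.7 and 322.5. Ndst4, for a heparan sulfate sulfotransferase, ran from 2.4 in wild-type library 4 to 218.7 in library 6. All 3 were thus lowest in wild-type library 4 and highest in library 6, as was Kcnq5. This largely follows from choosing them for likeness to Kcnq5, which deviated most in these libraries (-3.12 and 2.11 on the log2 scale). Of the 12 cell type marker lists, 0 had both their lowest median in wild-type library 4 and their highest in library 6. The neuronal markers had median log2 deviations of -0.02 and 0.05 there, but 1 of the 16, the synaptic vesicle protein gene Syt1, was also lowest in wild-type library 4 (142.5 normalized counts) and highest in library 6 (893.1). Library 6 had the lowest median of hair and supporting cell markers (-0.55), Schwann cell markers (-0.29) and satellite and non-myelinating glia markers (-0.09). Wild-type library 4 had the lowest median of 5 lists, with -2.57 for neutrophils, -0.95 for osteoblasts and osteocytes and -0.43 for fibroblasts, and in library 6 these were -0.20, 0.14 and 0.27. Of 8 neutrophil markers 4 were in the table, none at 0, with a sum of 106.3 to 2346 normalized counts in wild type and 649.1 to 6030 in libraries 5 to 8. The 8 osteoblast and osteocyte markers summed to 3352 to 10919 and 6760 to 14028, and the 8 fibroblast markers to 26526 to 52458 and 37491 to 52145. The part of these cell types in the values of Kcnq5 was not tested.

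**Figure D4:**
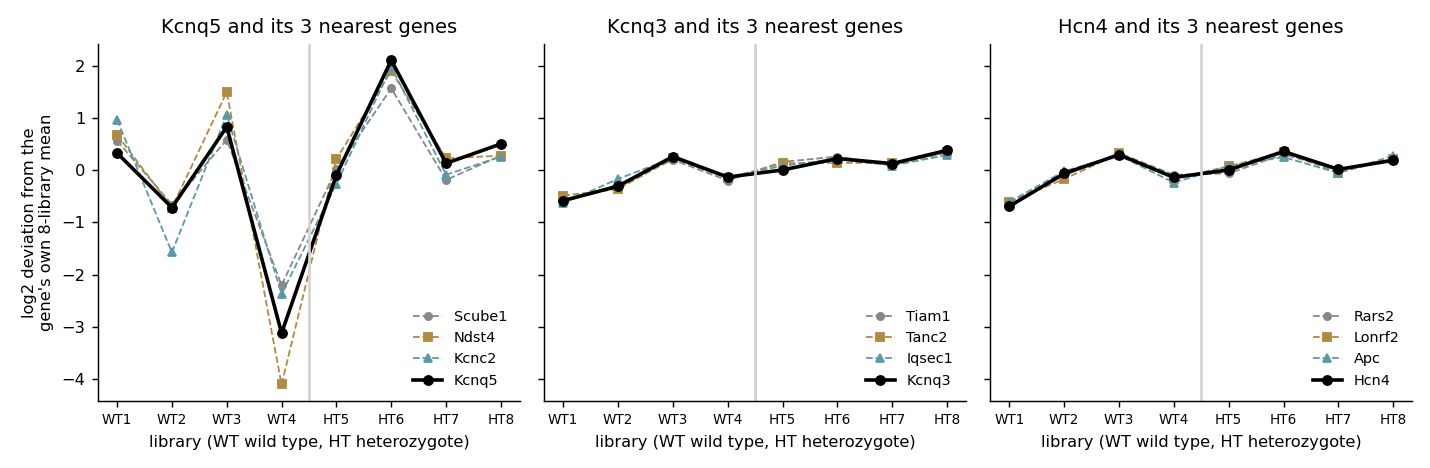
Log2 deviation from each gene's own mean in the 8 libraries for Kcnq5, Kcnq3 and Hcn4 (black) and the 3 genes nearest to each (dashed), where lines only guide the eye. Kcnq5, and Scube1, Ndst4 and Kcnc2 chosen for likeness to it, have their lowest point in wild-type library 4 and their highest in library 6. The other panels stay within 1 log2 unit of 0.

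Genes that act with these channels were read from 7 lists, with 63 of 67 listed genes tested. At a limma-trend adjusted p under 0.05, 0 of 63 passed. At an unadjusted p under 0.05 there were 8 higher and 3 lower, 17.5% in both directions, against 14.1% of all genes tested. That 14.1% was made up of 6.72% higher and 7.34% lower. Among 14 adenylyl cyclases and phosphodiesterases, which make and break down cyclic AMP, 3 had an unadjusted p under 0.05 (21.4%), all higher. Their median log2 fold change was 0.12. Adcy9, an adenylyl cyclase, had 1065 ± 252 normalized counts in wild type and 1427 ± 168 in libraries 5 to 8 (SD, n = 4 each), at a limma-trend adjusted p of 0.278. Pde4d, a phosphodiesterase, had 859.3 ± 135 and 1034 ± 54.8, with a limma-trend adjusted p of 0.334. Without wild-type library 3, 1 gene of the 63, Adcy9, passed the adjusted threshold, where 1.49% of all genes did.

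The HCN partner list held 8 tested genes with a median log2 fold change of 0.24. Flna, an actin cross-linker that binds HCN channels, had 3220 ± 527 and 3873 ± 134 normalized counts (SD, n = 4 each; limma-trend adjusted p 0.316), and Grasp, a scaffold protein also called tamalin, had a log2 fold change of 0.29 (limma-trend adjusted p 0.475). Of 17 tested Kv7 regulators and anchors, 2 had an unadjusted p under 0.05, both higher, a share of 11.8% against 14.1% of all genes. Plcb3, a phospholipase C that splits PIP2, had 808.9 ± 87.4 in wild type and 1006 ± 30.0 in libraries 5 to 8 without overlap (SD, n = 4 each; limma-trend adjusted p 0.266). Pi4ka, a kinase on the way to PIP2, had a log2 fold change of 0.38 (limma-trend adjusted p 0.283). The 4 Slack partners had a median of 0.06, with Ano3 at 0.43 and Fmr1, which encodes the RNA-binding protein FMRP, at 0.08 (limma-trend adjusted p 0.403 and 0.695).

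Other channels of the resting and slow potassium currents did not pass either. Of 9 two-pore potassium leak channels, 1 was higher and 2 were lower at an unadjusted p under 0.05. That share was 33.3%, against 14.1% of all genes tested. Kcnk9 had a log2 fold change of 0.52 and Kcnk13 of -0.76, and the list had a median of -0.12 (limma-trend adjusted p 0.286 and 0.319 for the named pair). Among 7 calcium-activated potassium channel genes, Kcnmb1, the smooth muscle subunit of the large-conductance channel, had 22.8 ± 12.6 and 6.42 ± 5.21 normalized counts (SD, n = 4 each; limma-trend adjusted p 0.294). Kcnma1, the pore of that channel, had a log2 fold change of 0.47 (limma-trend adjusted p 0.379). All 4 genes of the sodium leak channel complex had positive values, with 0.60 for Unc80 and 0.29 for Fam155a (limma-trend adjusted p 0.332 and 0.475). In that list wild-type library 1 had a median log2 deviation of -0.79, the lowest of the 8.

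**Figure D5:**
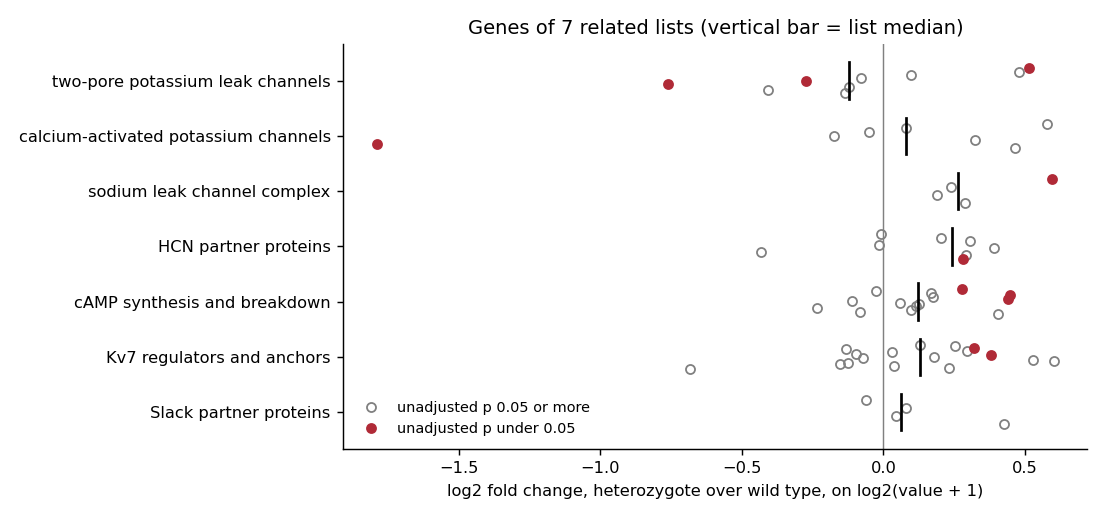
Log2 fold change (libraries labelled heterozygote over wild type, on the log2(value + 1) scale) of the tested genes of 7 lists, with filled points for an unadjusted p under 0.05 and a bar at each list's median. The filled points number 11 of 63, and Kcnmb1 is the farthest to the left, at -1.79.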

How the data were processed

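Isolated auditory nerves gave 8 libraries, prepared from 50 ng of total RNA after samples with an RNA integrity number under 7 had been set aside, per the labels' protocols. STAR, Partek, DESeq2 and the build mm10 are named, without versions, in the submitters' processing notes, and how reads were counted is not given in the sources used here. The authors deposited 1 signal column per library, judged from the values to be gene counts divided by a size factor. The authors' deposited comparison gives for each gene the log2 of a ratio, the ratio and a p-value with its FDR. A signed fold change in the authors' deposited columns is a score and was left aside.

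Per library, the worth of 1 read was taken as the step that best divided values under 1000 into whole multiples, within 0.06 normalized counts. The share of such multiples was 89.3% to 92.2%, against 9.25% to 15.2% by chance. That was judged too few to treat the values as whole reads in the main comparison, from which count models were left out. Estimated reads were used only for limma-voom among the alternatives, for the Poisson interval and to describe depth. The filter asked for 10 normalized counts in 4 or more libraries, and values entered as log2(value + 1), which understates changes of scarce genes. Genotypes were compared with limma-trend (limma 3.58.1, R 4.3.3) on all 8 libraries without covariates, adjusted over 14870 genes, in the form the design gave for normalized values. On simulated data for this comparison, 200 of 14870 genes, drawn at random, were changed, with noise drawn separately for each gene. There limma-trend recovered 72% of genes changed 2-fold and 92% of those changed 4-fold. In the real data 12 genes passed, and the adjusted threshold is stricter when fewer pass. The recovered shares are averages over genes and do not hold for variable members such as Hcn3 and Kcnq5. Replicates are different mice. The members and lists were chosen with earlier results of these data known. Named genes are all members, the 2 genes of each list with the smallest p where none passed, and for each member the 3 nearest genes. Older symbols were matched through RefSeq for 3 list genes. Lengths came from GENCODE M21 (98.8% of genes) and promoters from RefSeq. Python 3.11.15 with numpy 2.4.6, pandas 2.3.3, scipy 1.17.1 and matplotlib 3.10.9 was used. The planned ratio of Kcnt1 to Kcnt2 was not analysed here, so adjustment was over 4 ratios.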

Additional observations from a re-analysis of the deposited data

Results flagged for a closer look

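The within-library log2 ratio of Kcnq3 to Kcnq5 had 1 library far from the other 3 among those labelled heterozygote. Library 6 was at 0.92 against 2.68 to 2.90 in the others, and its gap to the nearest was 0.890 of the group's range, above Dixon's 95% critical value for 4 values. Of 20 groups of 4 libraries checked, 1 stood out in this way, and chance gives about 1 in 20 groups. Library 6 is also where Kcnq5 was highest.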

How the results depend on the processing

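For the members' fold changes and counts, 19 alternatives were run, 8 of which left out 1 library each. Those planned were other filters (none, or at least 50 normalized counts), pseudocounts of 0.1 and 10, limma-voom on estimated reads, quantile and upper-quartile scaling, low Xist as a covariate or its 2 libraries left out, and removal of the trend on transcript length. Scaling to the neuronal markers was added after seeing the data. In all 19, 0 members had an adjusted p under 0.05, with limma adjusted p from 0.0702 to 0.988. With the trend on transcript length removed, Kcnt1 turned to -0.065. The members with an unadjusted p under 0.05 went from 1 to 0, the list genes from 11 to 7 and all genes from 14.1% to 11.1%. Without the 2 libraries low in Xist, 1 member did not overlap between genotypes, and neither did 18.5% of all genes. Leaving out 1 library at a time gave 0 to 3 members at an unadjusted p under 0.05, against 7.95% to 23.0% of all genes. Members without overlap were 0 to 2, against 8.74% to 20.9% of all genes. Of the list genes, 0 to 1 passed the adjusted threshold, where up to 1.49% of all genes did. At an unadjusted p under 0.05 the list genes were 5 to 18. They were 18, or 28.6%, without wild-type library 3, where 23.0% of all genes passed. They were 5, or 7.94%, without library 8, where 7.95% did, and 7 without wild-type libraries 1 or 4 or library 7. The difference in the Hcn3 to Hcn4 ratio ran from -0.10 to 0.27 in those fits, below 0 without wild-type libraries 1 or 2 or library 6. The cause was not tested. Of the 4 ratios, 0 passed in any of 11 alternatives. With so few libraries a ratio could not pass after adjustment on its own, so this count decides little. Without wild-type library 3, Hcn2 to Hcn4 had the smallest possible exact permutation p, 0.0286, and its adjusted p was still 0.114. Without both libraries low in Xist, no ratio could pass. No paired analysis was possible because the replicate numbers are not shared between genotypes. Depth limits Hcn3 and Kcnq5 most, where 3 reads stand for 2.37 to 3.89 normalized counts.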
